A study of Arabidopsis thaliana with 8 samples.

Results

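A set of 99 array probes, out of 43603 on the array, detected transcripts that were at least 2-fold higher with abscisic acid (ABA) both in seedlings with an empty vector and in seedlings of an ANAC096 line, while the lines differed by less than 2-fold with or without the hormone. The members were chosen by the measured values themselves. A probe's level was taken as log2 of its processed signal minus the 75th percentile of its array, so 0 is the 75th percentile and each step of 1 is a 2-fold difference. Membership asked for a rise of at least 1 with ABA in each line, a line difference between -1 and 1 both without and with ABA, and a mean level of at least -6 in the ABA group. Every group contrast among these was therefore used in the choice, and the values below describe the members and are given with no test.

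Whole seedlings of Arabidopsis thaliana Col-0, 12 days old, were grown in liquid MS medium and gave total RNA for 8 one-colour arrays, 2 in each of 4 groups. The control group carried the pTA empty vector and had 30 µM dexamethasone (Dex) for 1 h, and the ANAC096 group carried pTA-ANAC096 and had the same treatment. The ABA group carried the empty vector and the ANAC096+ABA group carried pTA-ANAC096, and in both, 2 µM ABA joined the 30 µM Dex for the final 30 min. All seedlings, controls included, were thus transgenic and had Dex, which is the inducer generally used with pTA vectors. How many independent transformed lines were used, and whether seedlings were pooled, is not given in the sources used here, so the spread between arrays of a group may be partly technical. In whole seedlings, a difference in transcript level per cell and a difference in the share of cells holding the transcript cannot be told apart.

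ABA is the hormone with which plants answer drought, salt and osmotic stress and hold back germination. It binds PYR/PYL receptors, which then block a group of protein phosphatases. Kinases of the SnRK family are released from those phosphatases and phosphorylate bZIP transcription factors, which bind ABA-responsive elements in promoters and raise stress transcripts. ANAC096 belongs to the NAC family of plant transcription factors, and the series' title places it together with bZIP factors in the response to dehydration and osmotic stress. The 99 members bear on the question which transcripts were higher after 30 min of ABA in both lines while differing by less than 2-fold between them. The files name these probes by the array maker's identifiers and pair none with a gene, and the reference table held 0 of the identifiers. Genes, protein products and promoters of the members are therefore not analysed here, and only 2 probes are named.

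The scanner marked 75.59% to 80.18% of probes per array as well above background (32961 to 34959) and 0 spots as saturated, and the 75th percentile of signal used for scaling was 5252 to 8128. A single slide held the 8 arrays, with the ABA-treated groups in one row and the untreated groups in the other, so the row's part in an ABA effect cannot be told apart from the hormone's. The mean negative-control signal was 9.7 to 11.8 on the arrays with ABA and 5.9 to 7.58 on the others. Its part in the results was not tested. The scanner marked 97 of the 99 members as well above background on all 8 arrays. The other 2 members each missed that mark on 1 array without ABA (control replicate 1 and ANAC096 replicate 2), and none missed it on an array with ABA.

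The rise in both lines and the line limits each narrowed the choice. Of 31172 probes with a mean ABA level of at least -6, 1374 were at least 2-fold higher with ABA in the empty vector line and 644 in the ANAC096 line, and 375 in both. The members are 26.4% of those 375, 7.21% of the 1374 and 15.4% of the 644, shares that also ask for the rise in the other line. Both line limits were met by 347 of the 1374 and by 219 of the 644. Of the 276 that were left out, 95 passed the line limit only with ABA present, 19 only without ABA, and 162 in neither state. The line difference without ABA was at least 1 in 254 of the 375 and at most -1 in 3, and with ABA it was at least 1 in 174 and at most -1 in 7. On the percentile scale used here, most probes at least 2-fold higher with ABA in both lines were thus also higher in the ANAC096 line without ABA. The median line difference of the 375 was 1.47 without ABA and 0.92 with it. A scale set by spike-in controls, described below, moved the median line difference of all probes without ABA by -0.62. The 99 members are the part of the 375 in which both line differences stayed within 1 of 0 on the percentile scale.

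Values on either side of each limit lay close together. The smallest ABA effect of a member was 1.011 in the empty vector line, and the nearest probe outside had 0.989. In the ANAC096 line the corresponding values were 1.006 and 0.996. The largest line difference without ABA was 0.999 among members and the nearest outside was 1.004, and with ABA these were 0.977 and 1.019. The lowest mean ABA level of a member was -5.852, against -6.12 for the nearest probe below the limit. At the limits on the ABA effect and the line difference, members and non-members were set apart by less than the median standard error of a log2 difference, which was 0.07 in a fit of all 4 groups with limma, a linear model that shares information on the spread between probes.

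The members spanned a wide range of levels. Their median level was -2.8 and -2.88 on the control arrays, -2.27 and -2.39 on the ANAC096 arrays, -1.19 on both ABA arrays, and -1.11 and -1.07 on the ANAC096+ABA arrays. The array medians of the groups did not overlap, and those of ABA and ANAC096+ABA lay nearest to each other. Over all probes the median was between -2.46 and -2.38 on every array. Single members ranged from -7.61 on a control array to 2.83 on an ANAC096+ABA array. Averaged over the 8 arrays, 22 members were brighter than the 75th percentile, and 27 were at -4 or below. The median mean level was -1.75, against -2.41 for all probes, and the brightest member averaged 1.8, a level that 9.17% of all probes exceeded.

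With ABA the members were higher by a median of 1.47 on the log2 scale (2.76-fold) in the empty vector line, with a range from 1.01 to 2.7 (2.02- to 6.51-fold). The quartiles were 1.17 and 1.72. In the ANAC096 line the median rise was 1.21 (2.32-fold), the quartiles 1.08 and 1.45, and the range 1.01 to 2.54 (2.01- to 5.83-fold). The medians over all probes were -0.01 and 0.03. Few were large: 6 members reached 4-fold in the empty vector line and 7 in the ANAC096 line, and 1 member did so in both. Taking for each member the smaller of its ABA effects, the median was 1.17, and 15 members had at least 1.5 in both lines.

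In each line all 99 members had both arrays with ABA above both arrays without it, against 29.3% of the 34713 tested probes for ABA over control and 37.6% for ANAC096+ABA over ANAC096. All 4 arrays with ABA were above all 4 arrays without it for 98 members, against 7.57% of tested probes. At an adjusted p under 0.05, limma called 97 members higher in ABA than in control, where 18.5% of tested probes were called higher, and 98 higher in ANAC096+ABA than in ANAC096, where 22.2% were. The choice of members fixes these directions, so nothing is read from the counts. The 2 members not called in both lines had standard errors of 0.45 and 0.5, against at most 0.33 for the other 97. The median difference between a member's replicate arrays was 0.11 for control, 0.04 for ABA, and 0.07 for each ANAC096 group. In 97 members the smaller ABA effect exceeded the largest difference between replicates of any group. The largest such difference, 1.66 in the ABA group, belonged to a dim member with levels of -4.79 and -3.13 on the ABA arrays and -5.04 and -5.38 in control, so its ABA effect of 1.25 is smaller than the gap between the ABA arrays.

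A_84_P22906 had the largest difference common to both lines. In the empty vector line its level was -7.03 and -6.93 without ABA and -4.72 and -4.51 with it, and in the ANAC096 line it was -6.34 and -6.94 without ABA and -4.12 and -4.07 with it. The processed signals behind them were 62.3 and 59.8, then 235 and 301, in the empty vector line, and 65 and 53.3, then 385 and 459, in the ANAC096 line. The arrays with ABA were all far above those without it, while the ANAC096 arrays overlapped the control arrays. The ABA effect was 2.37 in the empty vector line (5.15-fold, SE 0.19) and 2.54 in the ANAC096 line (5.83-fold, SE 0.19). The line differences were 0.34 without ABA and 0.52 with it, each with an SE of 0.19, and -0.28 and 0.88 on a scale set by spike-in controls, where the ABA effects were 2.09 and 3.25. The probe is among the dimmer members, and its ABA effects were smaller in the authors' deposited table, which has no background subtraction (1.37 and 1.76), and with normexp, a model-based background correction (1.44 and 1.48).

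A_84_P207668 stands for the typical member, since the smaller of its ABA effects lay nearest to the members' median. Its 2 spots averaged -2.8 and -2.88 on the control arrays and -1.58 and -1.5 on the ABA arrays, and in the ANAC096 line -2.48 and -2.53 without ABA and -1.35 and -1.33 with it. The processed signals were 1170 and 990 in control and 2060 and 2429 in ABA, and for the ANAC096 line 940 and 1133 without ABA and 2628 and 3078 with it. No group overlapped another on the log2 scale, and the levels rose in the order control, ANAC096, ABA, ANAC096+ABA. The ABA effect was 1.3 in the empty vector line (2.46-fold) and 1.17 in the ANAC096 line (2.24-fold), and the line differences were 0.33 without ABA and 0.2 with it (SE 0.05 each). With quantile normalization, normexp correction or the authors' deposited table, the ABA effects of this brighter probe were 1.29 to 1.32 in the empty vector line and 1.14 to 1.2 in the ANAC096 line. On the spike-in scale they were 1.02 and 1.87, and the line difference without ABA turned to -0.28.

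Within the limit set by the rule, most members were at a higher level in the ANAC096 line on the percentile scale, though without ABA this turned on the spike-in scale, described next. Without ABA the line difference was above 0 in 89 members and below 0 in 10, with a median of 0.53 (1.44-fold) and a range from -0.68 to 1. With ABA it was above 0 in 91 and below 0 in 8, with a median of 0.4 (1.32-fold) and a range from -0.95 to 0.98. Over all probes these medians were 0.03 and -0.03. In 85 members both line differences were above 0, in 4 both were below 0, and in 10 they had opposite signs. Both ANAC096 arrays lay above both control arrays for 84 members, against 35.7% of tested probes, and both ANAC096+ABA arrays above both ABA arrays for 87, against 36.7%. Limma called 79 members higher and 3 lower in ANAC096 than in control, where 26.6% and 32.7% of tested probes were called. In ANAC096+ABA against ABA it called 68 higher and 6 lower, where 22.1% and 22.6% were called. Both contrasts entered the choice, which removed probes mainly on the high side, so the counts are no test of a line difference.

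Without ABA, the direction of the median line difference depended on the scale. On the percentile scale the mean level of the E1A spike-in spots, which are added RNA of known amount, was 0.083 and 0.101 on the control arrays and 0.406 and 0.327 on the ABA arrays, and in the ANAC096 line 0.777 and 0.642 without ABA and -0.115 and 0.126 with it. With the spike-ins as the reference the median line difference of the members without ABA was -0.09 and 46 of 99 were above 0, while with ABA the median was 0.76 and 93 were above 0. The same scaling moved the median of all probes by -0.62 without ABA and 0.36 with it. Relative to the median of all probes, the members were 0.5 higher in the ANAC096 line without ABA and 0.43 higher with ABA, which is the same on either scale because an array's scale moves all its probes alike. The ABA effects of all 99 members stayed above 0 with the spike-in scale, with medians of 1.19 in the empty vector line and 1.92 in the ANAC096 line. They were at least 1 in 64 members in the empty vector line and in all 99 in the ANAC096 line. The line difference with ABA was at least 1 in 20 members.

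The 4 group means fell in a common order. Control was lowest, then ANAC096, then ABA, with ANAC096+ABA highest, in 85 members. In 6 members ANAC096 was lowest and ANAC096+ABA highest, in 4 control was lowest and ABA highest, and in the other 4 ANAC096 was lowest and ABA highest. The rule leaves only these orders, because a rise of at least 1 with ABA and a line difference under 1 put every ABA mean above both means without ABA. Against control, ANAC096+ABA was higher by a median of 1.92 (3.78-fold), with a range from 0.52 to 2.88, so the median member was higher with line and ABA together than with ABA alone. On the spike-in scale the mean of ANAC096 was above that of control in only 46 members.

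The size of the line difference set subsets of the members apart. In 7 members both line differences were within 0.25 of 0. Their ABA effects ranged from 1.1 to 1.91 in the empty vector line, with a median of 1.31, and from 1.04 to 2.27 in the ANAC096 line, with a median of 1.26. Their median level without ABA was -4.38 and -4.32 on the control arrays and -4.39 and -4.43 on the ANAC096 arrays, and with ABA it was -2.44 and -2.5 in the empty vector line and -2.29 and -2.25 in the ANAC096 line. At the other end, 29 members were higher in the ANAC096 line by at least 0.5 in both states, with median line differences of 0.78 and 0.59 and median ABA effects of 1.36 and 1.15. Here the arrays of the 4 groups stood apart, with median levels of -2.4 and -2.48 for control, -1.64 and -1.55 for ANAC096, -1 and -0.98 for ABA, and -0.44 and -0.36 for ANAC096+ABA. The 4 members that were lower in the line in both states had median line differences of -0.37 without ABA and -0.67 with it. They include the dim member whose ABA arrays differed by 1.66, with line differences of -0.68 and -0.73 (SE 0.5 each). These subsets were formed after the values were seen, by line differences on the percentile scale. How far the lines stood apart in each subset therefore follows from the pick.

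On the percentile scale, the ABA effects of the lines differed by less than 0.5 in 80 members. The effect in the ANAC096 line minus that in the empty vector line had a median of -0.13, quartiles of -0.39 and 0.06 and a range from -1.69 to 1.23. It was below 0 in 69 members and above 0 in 30, and its median over all probes was -0.01. Limma called it lower in 30 members and higher in 8, where 18.9% and 23.4% of tested probes were called, and for the 61 others a call that was not made does not show equal effects. Fewer were called lower when an array of ABA, ANAC096 or ANAC096+ABA was left out, whichever the replicate, though such a fit left 1 array in that group. With spike-in scaling the median was 0.85 and 87 members were called higher, where 82.9% of tested probes were, the median of all probes being 0.97 on that scale, and relative to all probes the members were at -0.12 on both scales.

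The members at the ends of this range were picked out after their values were seen. In 1 member the level was higher with ABA by 2.7 in the empty vector line, from -5.03 and -4.9 to -2.28 and -2.24, but by 1.01 in the ANAC096 line, from -4.23 and -4.22 to -3.1 and -3.31. The difference of the effects was -1.69 (SE 0.11), and the ANAC096+ABA arrays lay below the ABA arrays. In another the ABA effect was 1.07 in the empty vector line, from -1.13 and -1.26 to -0.03 and -0.22, and 2.3 in the ANAC096 line, from -1.57 and -1.32 to 0.89 and 0.82, a difference of 1.23 (SE 0.15). On the percentile scale no other member differed by 1 or more. On the spike-in scale these differences were -0.71 and 2.21, and 28 members had a difference of at least 1. Across the 99 members the ABA effects of the lines correlated at r = 0.33 and the line differences without and with ABA at r = 0.42. Each pair of contrasts comes from separate arrays, but the rule limits the range of all 4, and members may share a gene.

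The members were also described by their level of signal, with no test, since the rule sets a minimum for both ABA effects. The 37 members with a mean level above -1 had median ABA effects of 1.32 in the empty vector line and 1.2 in the ANAC096 line. For the 35 members between -4 and -1 these were 1.48 and 1.2, and for the 27 at -4 or below they were 1.58 and 1.31, so the median in the empty vector line was higher at lower levels. The median line difference was 0.57, 0.52 and 0.53 without ABA in the same order, and 0.42, 0.37 and 0.42 with ABA. Across members, the mean level and the smaller ABA effect correlated at r = -0.19. With normexp correction, 85 members had an ABA effect of at least 1 in the empty vector line and 69 in the ANAC096 line, and in the authors' deposited table these numbers were 81 and 77.

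Repeat spots on the same array gave a reading of the error between spots within an array, which leaves out differences between arrays. Of the members, 50 had 1 spot and 49 had 2. The members were chosen on the mean of these same spots, so the spots give no check of the choice, and they are used only for the difference between them. The spots of a member differed in their ABA effect by a median of 0.08 in each line, and at most by 0.97 in the empty vector line and 0.76 in the ANAC096 line.

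The same measure on arrays that a choice did not use was read by applying the rule to arrays of one replicate number and reading the probes on the others. On the arrays numbered 1, 98 probes met the rule, 77 of them members. On the arrays numbered 2, these probes had median ABA effects of 1.31 in the empty vector line and 1.2 in the ANAC096 line, against 1.35 and 1.25 on the arrays that chose them. Both effects were above 0 in 96 of the 98 and at least 1 in 68 (69.4%), against 1.26% of all probes with an ABA level of at least -6 there, and 63 (64.3%) met the whole rule again. In the other direction, 104 probes met the rule on the arrays numbered 2, 83 of them members. On the arrays numbered 1 their median effects were 1.49 and 1.22, both were above 0 in all 104 and at least 1 in 74 (71.2%), against 1.2% of all such probes, and 63 (60.6%) met the rule. The median line difference on the unused arrays was 0.48 and 0.55 without ABA, and 0.43 and 0.39 with it. With 1 array a group in each reading there is no test, and the scale and the slide are shared by both readings.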

How the data were processed

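Per the labels, total RNA was labelled with Cy3. The authors deposited 1 scanner file per array with spot intensities, extracted per the file headers by Feature Extraction 10.7.1.1 on array design 031025, and a log2 table. Median signals, taken to log2 and quantile-normalized here, gave the deposited log2 table within 5.0e-09, so its scale and direction are settled from the values.

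Spots of a probe were averaged (25549 probes with 1 spot, 18054 with 2) after the 1319 control spots were left out. Limma 3.58.1 in R 4.3.3 (lmFit, eBayes, Benjamini-Hochberg, threshold 0.05) fitted the 4 group means of 34713 probes (those marked well above background on each array of some group), with 4 residual degrees of freedom, and gave the standard errors and calls. Limma was run on simulated data with independent noise on each array, which had no shifts shared between arrays, so that run does not show how well the fit does here. The number of arrays limits the precision. Alternatives were spike-in scaling (210 E1A spots), quantile normalization, normexp (offset 50, on median signals because the files hold no mean signal), the deposited table, other filters, a replicate block and leaving out each array.

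The members and the lists were chosen with earlier results of these data known. The 2 named probes are the member with the largest smaller ABA effect and the member nearest its median, among members well above background on all arrays. Gene lists and tissue markers were not analysed here, since no probe has a gene name.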

Additional observations from a re-analysis of the deposited data

Results flagged for a closer look

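The ABA effect differed between the lines by the limma interaction term in 38 of the 99 members. It was smaller in the ANAC096 line in 30 of them and larger in 8, where 18.9% and 23.4% of tested probes were called. The 38 are 38.4% of the members, near the 42.3% of tested probes called in either direction, so the number of calls is no result about the members. With spike-in scaling these counts were 1 and 87, where 3.28% and 82.9% of tested probes were called. Leaving out an array of ABA, ANAC096 or ANAC096+ABA, whichever the replicate, gave fewer than 30 members with a smaller effect. The rule used the contrasts behind this term, and the cause of the differences was not tested.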

How the results depend on the processing

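Both ABA effects of all 99 members stayed above 0 under the 6 other processings, the lowest single effect being 0.41, with normexp correction, and 37 members met the whole rule under all 6. With spike-in scaling 239 probes met the rule, 56 of them members, and the members' median ABA effects were 1.19 and 1.92 in the empty vector and ANAC096 lines. The median line difference was then -0.09 without ABA and 0.76 with it, and the median difference of the ABA effects 0.85. On that scale limma called 7 members higher and 25 lower in ANAC096 than in control, where 7.52% and 74.2% of tested probes were called. It called 89 higher and 1 lower in ANAC096+ABA than in ABA, against 46.5% and 5.59%, and the difference of the ABA effects higher in 87 and lower in 1, against 82.9% and 3.28%. Quantile normalization gave a median ABA effect of 1.3 in the ANAC096 line and a line difference of 0.45 without ABA, with 5 members called lower in ANAC096 against control. Normexp correction gave median ABA effects of 1.24 and 1.11 and a line difference of 0.47 without ABA. The rule was then met by 88 probes, 62 of them members, and in the authors' deposited table by 96, 64 of them members. The authors' deposited table gave 1.23 for ABA in the empty vector line, 0.39 for the line difference without ABA and -0.04 for the difference of the ABA effects, with 6 members called lower in ANAC096 against control and 14 with a larger ABA effect in the ANAC096 line. With no minimum ABA level 222 probes met the rule, with a median ABA effect of 1.32 in the ANAC096 line and median line differences of 0.39 without and 0.31 with ABA. The causes of these shifts were not tested.

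Leaving out each array in turn, 88 to 96 members met the rule again, and 65 met it every time. The median ABA effect in the empty vector line was 1.41 to 1.47, and 1.4 on the arrays numbered 2 alone. Members called with a smaller ABA effect in the ANAC096 line numbered 19 to 33, with 19 both without ABA replicate 1 and without ANAC096+ABA replicate 1. Across tested probes, the differences between replicate arrays correlated at -0.08 to 0.06 between groups. Whether same-numbered arrays share a batch that affects some probes was not tested. A fit with the replicate block called 60 members higher in ANAC096+ABA than in ABA, where 68 were called without it, and 26 in place of 30 with a smaller ABA effect in the ANAC096 line. In all, 216 of the 246 values computed under alternatives kept their direction and stayed within the spread between arrays, or within 1.5 times for counts. Many of these alternatives differ little from the main setting, so the tally does not measure how far the results depend on the processing. With spike-in scaling the number of probes meeting the rule and every median over the members moved beyond these limits or changed sign. With 2 arrays a group, the spread of any one group is poorly known.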
